A study of Homo sapiens with 21 samples.

Results

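The genes described here are a list of 42 YAP and TGF-beta response genes, followed in the human ovarian cancer line HEY after transfection with mir-429. Members were found by gene symbol in the platform annotation of the arrays, and each gene was read from its brightest probe set that carries 1 symbol. Of the 42 genes, 41 had such a probe set and 40 entered the tests, out of 12879 genes tested in all and 19775 genes with a probe set. The kinase gene NUAK2 had no probe set of its own, because the only one shares its symbol with other genes. CNN1, which encodes the actin-binding protein calponin, lay above the array median on 0 of 21 arrays and was not tested. Of the tested members 38 lay above the array median on all 21 arrays, and TAGLN did so on 20. ANKRD1 did so only on the 3 mir-429 arrays of 48 h, so its tests depend on the group in which it was high.

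Expression was measured on 21 arrays in 7 groups of 3. One group was untransfected cells at 0 h, and the others were cells transfected with a negative control microRNA at 24, 48 and 144 h, and cells transfected with mir-429 at the same 3 times. All groups are the same line without any genetic change named in the labels, and all transfected cells were given a lipid reagent, so the untransfected arrays carry neither reagent nor small RNA. The replicates are labelled as biological, and the labels do not say how the cultures were kept apart. The p-values therefore describe only the spread among these arrays. No untransfected arrays were used at the later times, and a comparison with 0 h therefore holds transfection and time in culture together.

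YAP1 and its relative TAZ, the product of WWTR1, are co-activators without a DNA-binding domain of their own. They act in the nucleus through the TEAD transcription factors, and the Hippo kinases LATS1 and LATS2 phosphorylate them and keep them in the cytoplasm. TGF-beta ligands act through receptor kinases that phosphorylate SMAD proteins, which induce matrix, cytoskeletal and feedback genes. The classical YAP targets CCN1 and CCN2 are induced by TGF-beta as well, and both pathways are known for their activity in spreading cancer cells. mir-429 belongs to the miR-200 family, which is known for lowering the repressors ZEB1 and ZEB2.

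The mature sequences are shown because mir-429 shares its seed, the bases at positions 2 to 8 that pair with target sites, with its relatives. RefSeq, on build GRCh38.p14, places hsa-miR-429 at chr1:1169055-1169076 on the plus strand and hsa-miR-200c-3p at chr12:6963742-6963764 on the plus strand. The 3 sequences follow 5′ to 3′ with the seed in capitals.
hsa-miR-429: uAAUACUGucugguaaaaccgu
hsa-miR-200b-3p: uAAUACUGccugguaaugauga
hsa-miR-200c-3p: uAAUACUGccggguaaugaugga
All 3 carry the same seed, AAUACUG.

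The promoters of CCN2, ANKRD1 and THBS1 are shown as examples of YAP targets that hold the core motif of TEAD. They were picked both for the motif and for their differences between arms, so showing them is no support for a link. ANKRD1 also passed the filter only through its mir-429 arrays of 48 h. The motif searched was GGAATG on either strand (CATTCC on the other), over windows of 250 bases before to 50 after each start site in the RefSeq table of build GRCh38.p14. The 250 bases before the start site are printed 5′ to 3′ on the gene's strand, with the motif in capitals. CCN2, which encodes a matricellular growth factor, lies on the minus strand and its stretch is chr6:131951373-131951622.
CCN2: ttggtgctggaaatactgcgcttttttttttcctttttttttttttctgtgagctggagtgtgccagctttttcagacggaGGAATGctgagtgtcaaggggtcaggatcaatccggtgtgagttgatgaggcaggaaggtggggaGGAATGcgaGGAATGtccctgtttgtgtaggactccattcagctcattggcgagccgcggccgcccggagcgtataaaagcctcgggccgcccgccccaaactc
The stretch of ANKRD1, which encodes a nuclear ankyrin repeat protein, is chr10:90921088-90921337 on the minus strand.
ANKRD1: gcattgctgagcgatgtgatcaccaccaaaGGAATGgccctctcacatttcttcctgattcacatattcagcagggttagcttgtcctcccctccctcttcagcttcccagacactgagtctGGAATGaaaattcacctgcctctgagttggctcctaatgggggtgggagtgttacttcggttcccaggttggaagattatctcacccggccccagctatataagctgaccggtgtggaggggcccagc
The stretch of THBS1, which encodes the matrix protein thrombospondin-1, is chr15:39580829-39581078 on the plus strand.
THBS1: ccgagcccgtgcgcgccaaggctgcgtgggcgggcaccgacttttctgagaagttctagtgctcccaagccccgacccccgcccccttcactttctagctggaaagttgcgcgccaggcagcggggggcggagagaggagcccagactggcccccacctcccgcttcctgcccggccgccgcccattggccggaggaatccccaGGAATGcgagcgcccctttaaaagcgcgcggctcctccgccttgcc
CCN2 held 3 matches, ANKRD1 held 2 and THBS1 held 1. Promoters of 34 members were in the table, in 49 windows, and 12 windows of 12 members held the motif (24.5%), against 14.03% of all 35116 windows. The SMAD motif CAGAC, or GTCTG on the other strand, lay in 29 of the 49 member windows (59.2%) and in 45.3% of all windows. The CArG box of serum response factor lay in 1 member window, that of FSTL3, and in 1.29% of all windows. A match describes these letters only and is no evidence of binding.

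Values below are log2 RMA signals of probe sets, and changes are differences of log2 group means ± SE from limma. A difference was called at an adjusted p under 0.05 over all 12879 genes, and the SE comes from the gene's spread within all 7 groups. Levels are compared between arrays and not between genes. The labels' transfection was checked with the described targets ZEB1 and ZEB2: ZEB1 was lower with mir-429 than with control at 24 h (-1.29, limma adjusted p = 6.49e-06) and 48 h (-1.72, adjusted p = 1.36e-07) and was not called at 144 h (-0.14, adjusted p = 0.655). ZEB2 was called only at 48 h (-1.12, adjusted p = 0.000215). Of the leukocyte markers 0 of 7 with a probe set passed the filter. Of the 8 endothelial markers 6 passed, and CDH5 and TIE1 were bright on all arrays, without a test of which transcripts their probe sets read in this line. The mean level of the endothelial markers minus the array median ran from 1.26 to 1.45 on untransfected arrays, from 0.83 to 1.08 on control arrays and from 0.72 to 0.78 on mir-429 arrays at 24 h. At 48 h the ranges were 0.92 to 0.97 and 0.62 to 0.78, and at 144 h 1.23 to 1.30 and 1.25 to 1.504. The part of these markers in the results was not tested. The keratin genes KRT7, KRT8 and KRT18 and the intermediate filament gene VIM, markers of the line, were above the median on all arrays, and KRT19 was on 2. At 48 h 3 of these 4 tested genes, the keratins, were higher with mir-429 (0.93, 0.90 and 0.71). The mean level of this list above the array median at 144 h ran from 5.66 to 5.81 on control and from 6.10 to 6.35 on mir-429 arrays. In whole cultures fewer cells of a kind and less RNA per cell cannot be told apart.

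The 3′ minus 5′ signal of the control transcripts GAPDH and ACTB, a measure of how far the labelled RNA reaches, was 3.15 ± 0.53 (SD, n = 3) in untransfected cells. It was 4.21 ± 0.21 in control and 2.87 ± 0.36 in mir-429 cells at 24 h, with no overlap between these arms. At 48 h it was far higher in both arms, with 7.83 ± 0.62 in control and 8.55 ± 0.15 in mir-429 cells. At 144 h it was 3.90 ± 0.47 and 3.35 ± 0.13. This measure moves with the mir-429 comparison at 24 h and with every comparison of 48 h with 0 h. The calls of members that a fit with it as a covariate ended are named beside the results, or counted for 48 h against 0 h.

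**Figure D1:**
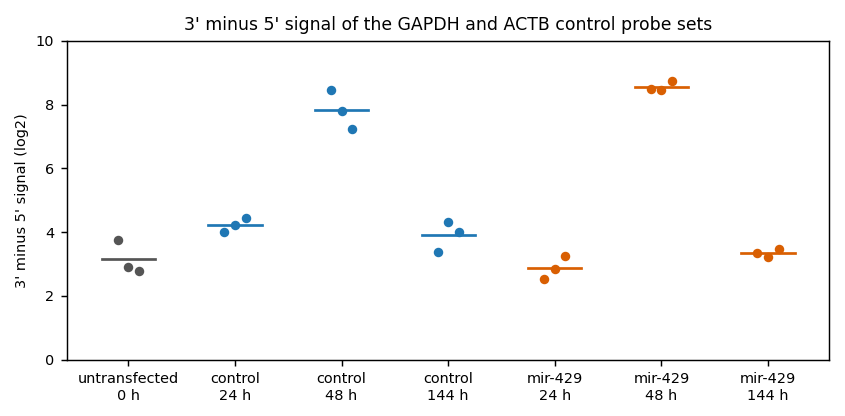
The 3′ minus 5′ signal difference of GAPDH and ACTB control probe sets (y axis, log2) is plotted for each of the 21 arrays by group, with bars at group means. The 6 arrays of 48 h stand far above all others, and at 24 h the control arrays (mean 4.21) lie above the mir-429 arrays (mean 2.87).

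Against control, mir-429 was followed at 24 h by higher THBS1, PMEPA1, ID1, SKIL, TEAD1, CCN2, NT5E, FSTL1 and ID3 and by lower ACTA2, TAGLN, FSTL3, GADD45B and LATS1. In all, 15 of 40 members were called, 10 higher and 5 lower, and 26.6% of all genes tested were called in this comparison (15.0% higher and 11.6% lower). At 48 h 14 members were called, 6 higher and 8 lower, against 20.6% of all genes (9.32% higher and 11.3% lower). At 144 h the count was 4, with 1 higher and 3 lower, against 5.85% of all genes (1.48% higher and 4.37% lower). The median change of the 40 members was 0.14 at 24 h, -0.02 at 48 h and -0.02 at 144 h, beside medians of -0.02, -0.01 and -0.04 over all genes. Called members lay on both sides of 0 at each time. With the 3′ to 5′ covariate 5 members were called at 24 h, against 4.77% of all genes. Of the 5, THBS1, PMEPA1, SKIL and TEAD1 were higher and ACTA2 lower, and the other 24 h calls were lost. Without ANKRD1, which entered the tests only through its 48 h mir-429 arrays, 14 members were called at 24 h and 13 at 48 h. With the other groups' arrays left out of the fit 4 were called at 48 h, 2 higher and 2 lower, against 7.11% of all genes. Most of the 48 h calls given below come from the fit over all groups and were thus lost in that smaller fit. With array weights 27 members were called at 24 h and 11 at 144 h, against 48.2% and 18.9% of all genes.

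**Figure D2:**
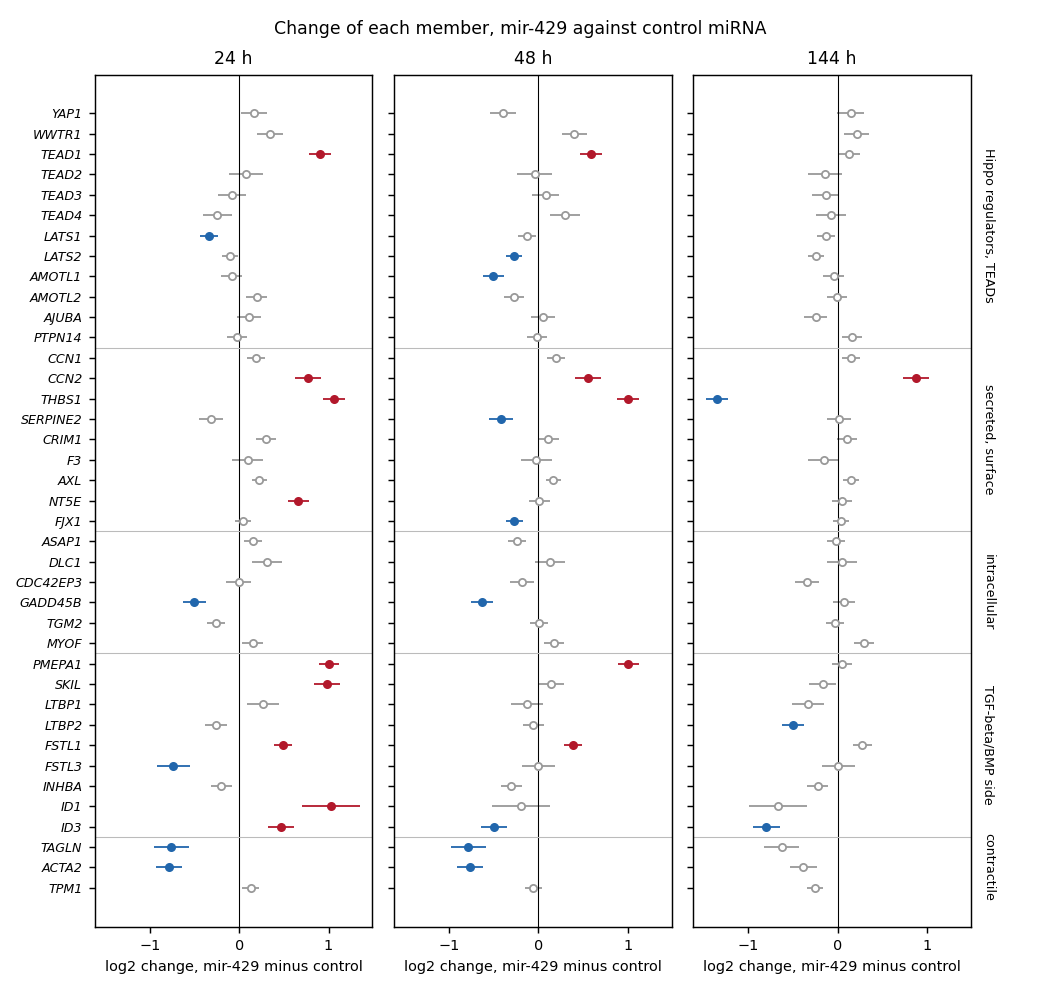
The log2 change of mir-429 against control ± SE (x axis) is plotted for 39 tested members (y axis; ANKRD1 is left out) at 24, 48 and 144 h, with filled red points for members called higher and filled blue points for those called lower. The called members shrink to CCN2 (0.88) on the higher side and THBS1 (-1.35), ID3 (-0.80) and LTBP2 (-0.50) on the lower side at 144 h.

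Among the co-activators and their regulators, YAP1 and WWTR1 were not called between arms at any time. YAP1 was at 9.73, 10.13 and 9.47 on the control arrays and at 10.00, 10.03 and 9.80 on the mir-429 arrays of 24 h. At 48 h the control arrays read 11.30, 11.52 and 11.54 and the mir-429 arrays 10.83, 11.14 and 11.21, and at 144 h they read 10.09, 10.15 and 10.13 against 10.28, 10.38 and 10.14. The arms overlapped at 24 h, and at 48 h every mir-429 array lay under every control array. The differences were 0.17 ± 0.15 (limma adjusted p = 0.447), -0.40 ± 0.15 (adjusted p = 0.0678) and 0.15 ± 0.15 (adjusted p = 0.659).

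WWTR1 was at 9.50, 9.65 and 9.30 on the control arrays and 9.91, 9.86 and 9.72 on the mir-429 arrays of 24 h. At 48 h it was at 10.12, 10.89 and 10.64 with control and at 10.84, 10.95 and 11.07 with mir-429, and at 144 h at 9.64, 9.75 and 9.54 against 9.83, 9.83 and 9.92. The mir-429 arrays lay above the control arrays at 24 and 144 h, and the arms overlapped at 48 h. None of the differences passed the test, with 0.35 ± 0.14 (limma adjusted p = 0.0853), 0.40 ± 0.14 (adjusted p = 0.0566) and 0.21 ± 0.14 (adjusted p = 0.463).

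TEAD1, which encodes the transcription factor that YAP1 and TAZ bind, was the regulator with the largest difference. It read 9.32, 9.63 and 9.10 on control arrays and 10.23, 10.33 and 10.20 on mir-429 arrays at 24 h, and 9.62, 10.02 and 9.81 against 10.43, 10.49 and 10.31 at 48 h. At 144 h the values were 9.87, 9.69 and 9.78 against 9.96, 9.96 and 9.80, and the untransfected arrays had 9.72, 9.78 and 9.92. The arms were apart at 24 and 48 h and overlapped at 144 h. TEAD1 was higher by 0.90 ± 0.12 at 24 h (limma adjusted p = 4.81e-05) and 0.59 ± 0.12 at 48 h (adjusted p = 0.00219), and stood at 0.13 ± 0.12 (adjusted p = 0.634) at 144 h. Another TEAD1 probe set was at -0.04, 0.51 and -0.35 and passed the test only at 48 h, so the 24 h difference was read by the brightest probe set and not by this one.

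The 3 other TEAD genes were not called in any of the 3 comparisons between arms. LATS1, the kinase that restrains YAP1, was lower at 24 h by -0.34 ± 0.10 (limma adjusted p = 0.017), and its partner LATS2 was lower at 48 h by -0.27 ± 0.09 (adjusted p = 0.0398). The LATS1 call was lost without control replicate 1 (-0.29) or mir-429 replicate 3 (-0.30), and that of LATS2 without control replicate 1 (-0.27) or 3 (-0.26) or mir-429 replicate 1 (-0.27) or 3 (-0.24). With the covariate both calls were lost, at -0.33 for LATS1 and -0.23 for LATS2. AMOTL1, a junction-associated protein that binds YAP1, was lower at 48 h (-0.51 ± 0.12, adjusted p = 0.00472), but other AMOTL1 probe sets were called higher there, at 0.56 and 0.38. AMOTL2, the LIM protein gene AJUBA and the phosphatase gene PTPN14 were not called between arms at any time. Of the 12 tested members of this class, 1 was called higher and 1 lower at 24 h and 1 higher and 2 lower at 48 h, and none was called at 144 h, where 0 were higher and 1 lower at an unadjusted p under 0.05 in limma. Of all genes 15.0% were called higher and 11.6% lower at 24 h, 9.32% and 11.3% at 48 h, and 5.85% either way at 144 h.

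The secreted and surface targets of YAP held the member with the steadiest difference. CCN2 read 9.77, 10.33 and 9.63 on control arrays and 10.62, 10.76 and 10.64 on mir-429 arrays at 24 h. It read 11.02, 11.30 and 11.08 against 11.84, 11.55 and 11.69 at 48 h, and 11.08, 10.88 and 11.00 against 11.93, 11.85 and 11.83 at 144 h. Every mir-429 array lay above every control array of its time. CCN2 was higher by 0.77 ± 0.14 at 24 h (limma adjusted p = 0.000838), 0.56 ± 0.14 at 48 h (adjusted p = 0.00984) and 0.88 ± 0.14 at 144 h (adjusted p = 0.00125). Of the 3 members called at both 24 and 144 h only CCN2 kept its direction. Of all 257 genes called at both of these times 63.8% went the same way. With the 3′ to 5′ covariate the 24 h difference was 0.58 and did not pass the test, while the one at 144 h did.

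CCN1, the close relative of CCN2 and the other standard readout of YAP, was not called between arms. It read 11.99, 12.16 and 11.92 against 12.11, 12.29 and 12.24 at 24 h, 12.67, 12.49 and 12.25 against 12.67, 12.57 and 12.76 at 48 h, and 12.33, 12.31 and 12.25 against 12.50, 12.45 and 12.39 at 144 h, control arrays first. The arms overlapped at 24 and 48 h and were apart at 144 h. The differences were 0.19 ± 0.10, 0.20 ± 0.10 and 0.15 ± 0.10, with limma adjusted p of 0.201, 0.208 and 0.481.

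THBS1 changed sides over time. On control arrays it read 7.66, 8.04 and 7.85 at 24 h, 7.41, 7.32 and 7.32 at 48 h and 8.21, 8.52 and 8.62 at 144 h. The mir-429 arrays read 9.06, 8.84 and 8.85, then 8.30, 8.35 and 8.43, then 7.30, 6.97 and 7.03, and the untransfected arrays had 7.20, 6.92 and 7.05. The arms did not overlap at any time, with mir-429 on top at 24 and 48 h and underneath at 144 h. THBS1 was higher by 1.06 ± 0.12 at 24 h (limma adjusted p = 1.03e-05) and 1.01 ± 0.12 at 48 h (adjusted p = 1.28e-05), and lower by -1.35 ± 0.12 at 144 h (adjusted p = 4.76e-06). The change of the difference from 24 to 144 h was -2.41 (adjusted p = 2.05e-07). Of its 7 probe sets 5 were tested, and the other 4 of these had the same signs at each time, from 0.28 to 2.37 at 24 h, 0.41 to 0.95 at 48 h and -1.02 to -0.44 at 144 h, but none of these 4 passed the test at 144 h.

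NT5E, which encodes the surface enzyme CD73, read 9.54, 9.74 and 9.37 on control arrays and 10.20, 10.25 and 10.17 on mir-429 arrays at 24 h. The untransfected arrays had 9.94, 10.13 and 10.18, so the control arrays were the ones that stood apart from 0 h. NT5E was higher with mir-429 by 0.66 ± 0.11 (limma adjusted p = 0.000428), and with the covariate the difference was 0.44 and did not pass. All 4 of its tested probe sets were positive at 24 h, but only 1 was called. At 144 h another probe set was called higher, while the brightest was not called. At 48 h the brightest probe set was at 0.01 ± 0.11 while 3 others were called higher, between 0.60 and 0.86. SERPINE2, a secreted protease inhibitor, was lower at 48 h (-0.42 ± 0.13, adjusted p = 0.0358), a call lost without control replicate 3 (-0.32) or mir-429 replicate 1 (-0.24) or with the covariate (-0.41). FJX1, a secreted Golgi-associated protein, was lower at 48 h (-0.27 ± 0.09, adjusted p = 0.0487) and lost that call without control replicate 3 or any mir-429 replicate, at -0.30 to -0.18, or with the covariate (-0.15). The receptor kinase gene AXL, the coagulation receptor F3 and CRIM1, a membrane protein that binds growth factors, were not called on their brightest probe sets, where changes lay between -0.15 and 0.30. The 2 other probe sets of CRIM1 were called higher at 24 h (0.80 and 0.79). Of the 9 tested members of this class, 3 were higher and 0 lower at 24 h, 2 higher and 2 lower at 48 h, and 1 higher and 1 lower at 144 h. The shares of all genes were 15.0% higher and 11.6% lower at 24 h, 9.32% and 11.3% at 48 h, and 1.48% and 4.37% at 144 h.

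Among the intracellular targets ANKRD1 was dim. It read 1.70, 2.63 and 1.94 on control and 3.77, 3.15 and 2.86 on mir-429 arrays at 24 h, all under the array medians, so no fold is given there. At 48 h it read 1.96, 3.86 and 3.71 on control arrays and 5.14, 5.27 and 4.64 on mir-429 arrays, and at 144 h 2.04, 2.13 and 2.46 against 2.46, 2.38 and 2.40. Untransfected arrays had 1.93, 2.12 and 2.03, and only the mir-429 arrays of 48 h rose above the medians. With the control arrays raised to their medians, ANKRD1 was higher with mir-429 by at least 0.84 at 48 h. No p is given, because these 3 arrays are also the ones that brought the gene past the filter.

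GADD45B, a stress-induced growth arrest gene, was lower with mir-429 at 24 h (-0.50 ± 0.13, limma adjusted p = 0.00703) and 48 h (-0.63 ± 0.13, adjusted p = 0.00155) and at 0.07 ± 0.13 at 144 h (adjusted p = 0.831). Its 24 h call was lost without control replicate 3 (-0.37) and with the covariate (-0.20). The tumour suppressor gene DLC1, the Arf regulator ASAP1, the septin regulator CDC42EP3, the crosslinking enzyme TGM2 and the membrane repair protein MYOF were not called between arms at any time on their brightest probe sets, where changes lay between -0.34 and 0.31. Other probe sets of CDC42EP3 were called lower, 2 at 24 h (-0.72 and -0.37) and 1 at 48 h (-0.44), as was 1 of ASAP1 at 48 h (-0.57). At 144 h 0 of the 7 members of this class were called by limma, against 5.85% of all genes, with 1 higher and 1 lower at an unadjusted p under 0.05.

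The TGF-beta response and ligand-binding genes had 5 of 9 members higher and 1 lower at 24 h, and a median change of 0.46. Of all genes 15.0% were higher and 11.6% lower, with a median of -0.02. At 48 h 2 of the 9 were higher and 1 lower, with a median of -0.06, beside 9.32% and 11.3% of all genes. At 144 h 0 were higher and 2 lower, with a median of -0.22, beside 1.48% and 4.37% of all genes. Only PMEPA1 and SKIL in this class kept their 24 h calls with the covariate. PMEPA1, a membrane protein that dampens SMAD signalling, read 8.78, 8.63 and 8.88 on control arrays and 9.82, 9.67 and 9.82 on mir-429 arrays at 24 h. At 48 h it read 9.08, 9.54 and 9.33 against 10.34, 10.31 and 10.31, and at 144 h 9.17, 9.05 and 8.97 against 9.25, 9.09 and 8.99. The arms did not overlap at 24 and 48 h, with mir-429 above, and they overlapped at 144 h. PMEPA1 was higher by 1.01 ± 0.11 at 24 h (limma adjusted p = 6.99e-06) and 1.01 ± 0.11 at 48 h (adjusted p = 4.96e-06) and stood at 0.05 ± 0.11 at 144 h (adjusted p = 0.872). Its 2 other probe sets were called higher at both earlier times, at 1.15 and 0.79 at 24 h and 1.19 and 0.84 at 48 h, and 1 of them was called lower at 144 h (-0.66).

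SKIL, which encodes the SMAD co-repressor SnoN, was called at 24 h alone on its brightest probe set. Its control arrays read 11.00, 11.27 and 10.50 and its mir-429 arrays 11.97, 11.87 and 11.88, while untransfected arrays had 12.00, 12.08 and 12.08. At 48 h the arms read 11.75, 12.19 and 11.78 against 12.21, 11.93 and 12.00, and at 144 h 11.95, 11.84 and 11.92 against 11.77, 11.75 and 11.68. At 24 h the control arrays lay about 1 under the 0 h arrays and the mir-429 arrays close to them. The difference of 0.98 ± 0.15 at 24 h (limma adjusted p = 0.000141) was followed by 0.14 ± 0.15 (adjusted p = 0.572) and -0.17 ± 0.15 (adjusted p = 0.601). Of the other SKIL probe sets 1 was called higher at 24 h (1.38), and the 3 further ones lay at -0.68, -0.14 and 0.06 and were not called. At 144 h the mir-429 arrays lay under the control arrays, and 1 other probe set was called lower (-0.82).

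ID1 and ID3 encode inhibitors of bHLH transcription factors and respond to BMP and TGF-beta ligands. ID1 read 7.17, 7.86 and 7.76 on control arrays and 8.64, 8.75 and 8.48 on mir-429 arrays at 24 h, 7.01, 6.95 and 7.86 against 7.26, 6.20 and 7.79 at 48 h, and 6.36, 6.78 and 6.71 against 5.42, 6.19 and 6.25 at 144 h. Untransfected arrays had 5.84, 5.99 and 5.93. The arms were apart at 24 h with mir-429 above, overlapped at 48 h, and were apart at 144 h with mir-429 underneath. Its differences were 1.03 ± 0.32 (limma adjusted p = 0.0238), -0.19 ± 0.32 (adjusted p = 0.738) and -0.67 ± 0.32 (adjusted p = 0.264), so only the first was called. Leaving out control replicate 1 (0.81), mir-429 replicate 1 (1.02) or mir-429 replicate 2 (0.97) ended that call, as did the covariate (0.97).

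ID3 read 8.19, 8.47 and 8.25 on control arrays and 8.78, 8.80 and 8.71 on mir-429 arrays at 24 h. The values were 8.45, 8.39 and 8.38 against 7.75, 8.13 and 7.85 at 48 h and 6.96, 7.39 and 7.07 against 6.04, 6.42 and 6.57 at 144 h, with 6.65, 6.53 and 6.93 on untransfected arrays. The arms did not overlap at any time, and mir-429 was above control at 24 h and below it later. ID3 was higher by 0.46 ± 0.15 at 24 h (limma adjusted p = 0.0252) and lower by -0.50 ± 0.15 at 48 h (adjusted p = 0.0221) and -0.80 ± 0.15 at 144 h (adjusted p = 0.00322). The 24 h call was lost without control replicate 1 (0.41) or 3 (0.44) or mir-429 replicate 1 (0.46) or 2 (0.44), and with the covariate (0.55). The 48 h call was lost without control replicate 1 (-0.47) or mir-429 replicate 1 (-0.42) or 3 (-0.47), and the one at 144 h was kept in each such fit.

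The ligand-binding members were less uniform. FSTL1, a secreted glycoprotein related to follistatin, was higher at 24 h (0.49 ± 0.10, limma adjusted p = 0.0021) and 48 h (0.39 ± 0.10, adjusted p = 0.0123), while 2 other probe sets of it lay at -0.09 and -0.16 at 24 h and 1 of these was called higher at 48 h (0.81). With the covariate its 24 h call was lost (0.48) and its 48 h call kept. FSTL3, an inhibitor of activin, was lower at 24 h alone (-0.74 ± 0.18, adjusted p = 0.00618), a call lost with the covariate (-0.37). LTBP2, a matrix protein of the family that holds latent TGF-beta, was lower at 144 h (-0.50 ± 0.12, adjusted p = 0.0186), a call lost without replicate 2 or 3 of either arm, at -0.49 to -0.45, or with the covariate (-0.41). Another LTBP2 probe set was called higher at 24 h (0.60) and lower at 144 h (-0.78). LTBP1, which binds latent TGF-beta, and INHBA, the activin subunit gene, were not called between arms at any time on their brightest probe sets, while 1 other probe set of INHBA was called lower at 24 h (-0.97).

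**Figure D3:**
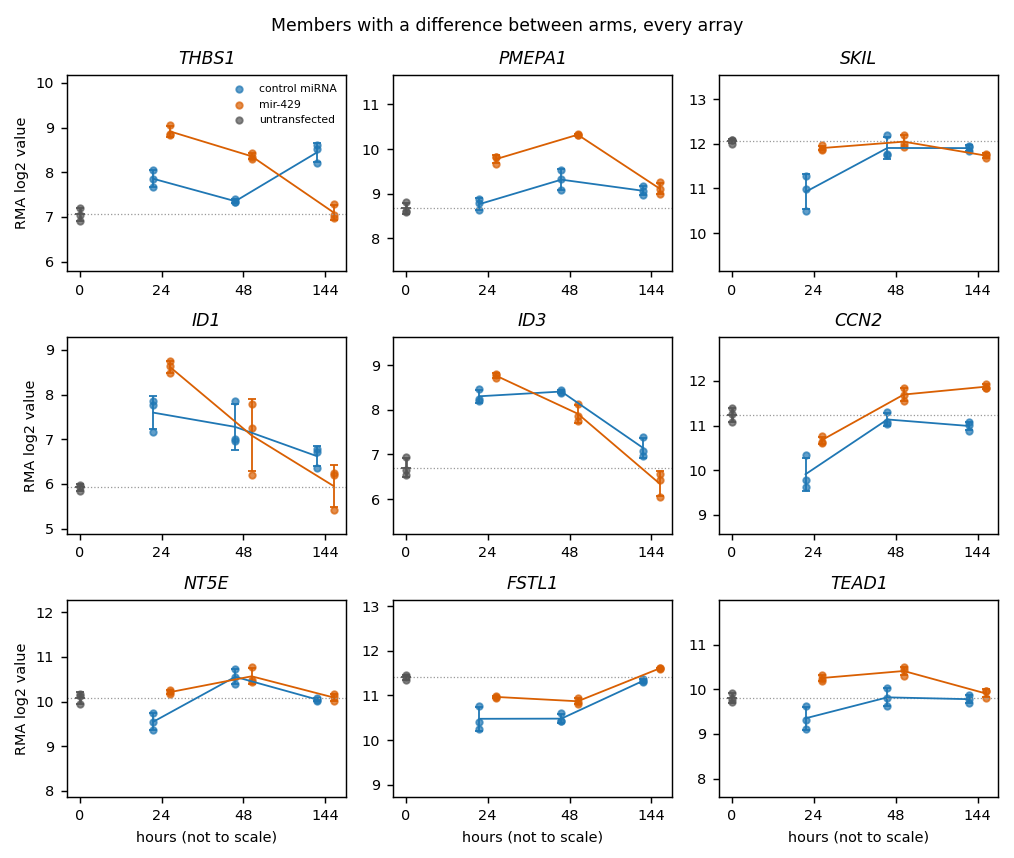
The log2 signal of 9 members (y axis, the same span in each panel) is plotted for each array by group (x axis), with group means ± SD (n = 3) and a dotted line at the untransfected mean. THBS1, PMEPA1, ID1 and TEAD1 of mir-429 arrays at 24 h lie above both the control arrays and the dotted line, whereas SKIL, CCN2, NT5E and FSTL1 of control arrays lie under the dotted line there.

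Of the 3 tested contractile genes, 2 were lower with mir-429 at the earlier times, beside 11.6% of all genes at 24 h and 11.3% at 48 h. TAGLN, which encodes the actin-binding protein SM22, read 5.85, 6.44 and 6.15 on control and 5.31, 5.67 and 5.18 on mir-429 arrays at 24 h, and 4.91, 5.05 and 5.07 against 4.34, 4.12 and 4.21 at 48 h. ACTA2, the smooth muscle actin gene, read 8.37, 8.32 and 8.45 against 7.59, 7.51 and 7.69 at 24 h and 7.08, 7.09 and 7.59 against 6.85, 6.29 and 6.33 at 48 h. Every mir-429 array lay under every control array for both genes at both times. The mir-429 values of TAGLN at 48 h were close to the array medians, above them on 2 of 3 arrays. All 3 tested TAGLN probe sets were negative at both times, with 1 called lower at 24 h and 2 at 48 h. TAGLN was lower by -0.76 ± 0.20 at 24 h (limma adjusted p = 0.0083) and -0.78 ± 0.20 at 48 h (adjusted p = 0.00817), and ACTA2 by -0.79 ± 0.15 (adjusted p = 0.000843) and -0.76 ± 0.15 (adjusted p = 0.00117). At 144 h they were at -0.63 ± 0.20 (adjusted p = 0.0704) and -0.38 ± 0.15 (adjusted p = 0.152), neither called. The third tested member of this class, the tropomyosin gene TPM1, lay between -0.25 and 0.13 on its brightest probe set and was not called. Of its 5 other tested probe sets 1 was called lower at each time, at -0.43, -1.82 and -0.62, and 2 more were called lower at 48 h (-0.61 and -1.04). At 144 h limma called 0 of the 3, against 5.85% of all genes, and 3 were lower at an unadjusted p under 0.05. With the covariate ACTA2 at 24 h stayed past the threshold (-0.91) and TAGLN did not (-0.46).

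**Figure D4:**
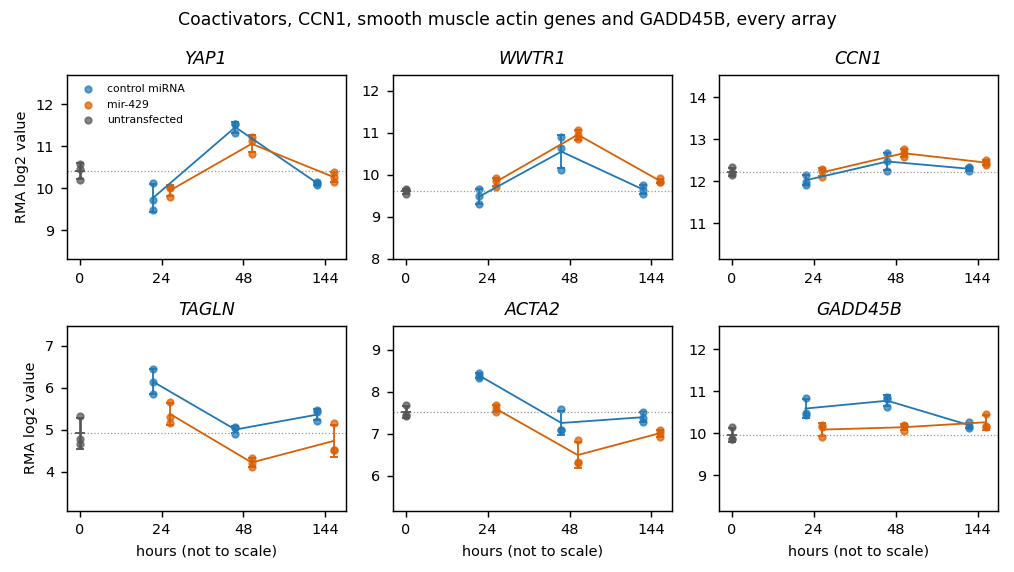
The log2 signal of YAP1, WWTR1, CCN1, TAGLN, ACTA2 and GADD45B (y axis) is plotted for each array by group (x axis), with means ± SD (n = 3) and a dotted line at the untransfected mean. TAGLN and ACTA2 of control arrays at 24 h stand above the dotted line while the mir-429 arrays lie nearer to it. At 48 h the arm means of YAP1 and WWTR1 lie nearer to each other than to the dotted line, and the arms of CCN1 overlap.

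Both arms were also set against untransfected cells of 0 h, which gives the change of each arm at 24 h. Without untransfected arrays of 24 h, transfection and time in culture cannot be told apart in these changes. The comparisons with 0 h share the same 3 untransfected arrays, so each gives its own values and no overlap between them is counted. In control cells 23 of 40 members were called at 24 h, 10 higher and 13 lower, against 38.0% of all genes (18.3% higher and 19.8% lower). In mir-429 cells 17 members were called, 9 higher and 8 lower, against 23.0% of all genes (11.7% higher and 11.3% lower). Without ANKRD1 16 were called, 8 higher and 8 lower. The members' median was -0.12 in control and 0.00 in mir-429 cells, and that of all genes was 0.04 in each.

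In one set of genes the mir-429 arm rose above 0 h by more than the control arm, or alone. THBS1 rose by 0.80 ± 0.12 in control (limma adjusted p = 0.000111) and 1.86 ± 0.12 in mir-429 cells (adjusted p = 9.2e-09), and PMEPA1 by 1.10 ± 0.11 in mir-429 cells (adjusted p = 1.68e-06) beside 0.10 ± 0.11 in control (adjusted p = 0.536). ID1 rose by 1.68 ± 0.32 in control and 2.70 ± 0.32 in mir-429 cells, and ID3 by 1.60 ± 0.15 and 2.06 ± 0.15, so both genes rose with the control microRNA too. TEAD1 fell by 0.46 ± 0.12 in control and rose by 0.45 ± 0.12 in mir-429 cells, and the control call was lost without control replicate 3 (-0.33) and the mir-429 call without untransfected replicate 1 (0.40) or mir-429 replicate 2 (0.41).

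In another set the control arm fell under 0 h, and the mir-429 arm fell by less or was not called. SKIL was at -1.13 ± 0.15 in control (limma adjusted p = 2.52e-05) and -0.15 ± 0.15 in mir-429 cells (adjusted p = 0.535). NT5E was at -0.53 ± 0.11 (adjusted p = 0.00153) and 0.13 ± 0.11 (adjusted p = 0.477). CCN2 fell in both arms, by 1.33 ± 0.14 in control and 0.57 ± 0.14 in mir-429 cells, as did FSTL1, by 0.93 ± 0.10 and 0.44 ± 0.10. Different probe sets of FSTL1 were called in opposite directions in control cells, so its fall there is that of the brightest probe set. Higher CCN2 with mir-429 than with control at 24 h thus stood beside a level under that of untransfected cells in both arms.

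For TAGLN, ACTA2 and GADD45B, control cells rose and mir-429 cells were not called against 0 h. TAGLN was at 1.22 ± 0.20 in control (limma adjusted p = 0.000147) and 0.46 ± 0.20 in mir-429 cells (adjusted p = 0.103), ACTA2 at 0.87 ± 0.15 (adjusted p = 0.000225) and 0.09 ± 0.15 (adjusted p = 0.73), and GADD45B at 0.63 ± 0.13 (adjusted p = 0.000876) and 0.13 ± 0.13 (adjusted p = 0.518). FSTL3 and LATS1 were lower in mir-429 cells than at 0 h, at -0.60 ± 0.18 and -0.67 ± 0.10, beside 0.14 ± 0.18 and -0.32 ± 0.10 in control. YAP1 was under 0 h in both arms, at -0.63 ± 0.15 in control and -0.46 ± 0.15 in mir-429 cells, and PTPN14 likewise at -0.87 ± 0.11 and -0.90 ± 0.11. In control cells different probe sets of PTPN14, FSTL1 and ASAP1 were called in opposite directions. These were 3 of 28 members with several tested probe sets, against 5.12% of all such genes. DLC1 and LTBP1 also fell in both arms, by 0.86 ± 0.17 and 0.99 ± 0.18 in control and by 0.55 ± 0.17 and 0.73 ± 0.18 in mir-429 cells. The protease inhibitor gene SERPINE2 and TEAD4 rose in both, by 0.88 ± 0.13 and 0.73 ± 0.17 in control and by 0.57 ± 0.13 and 0.49 ± 0.17 in mir-429 cells. Several of these calls needed single arrays. In mir-429 cells YAP1 lost its call without untransfected replicate 2 or 3 or mir-429 replicate 2 or 3 (-0.51 to -0.38), and DLC1 without the same 4 arrays (-0.54 to -0.52). FSTL3 lost it without untransfected replicate 1 or mir-429 replicate 1 or 3 (-0.55 to -0.43) and TEAD4 without any of the 6 arrays (0.46 to 0.53). With the covariate TEAD4 lost its call in mir-429 cells (0.49), and in control cells YAP1 (-0.41), TEAD1 (-0.26), TEAD2 (-0.63), NT5E (-0.36), LATS1 (-0.34), GADD45B (0.40), AMOTL2 (-0.25), ASAP1 (-0.35) and TGM2 (0.26) did. In control cells LATS1 lost it without untransfected replicate 2 or 3 or control replicate 3 (-0.31 to -0.30).

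**Figure D5:**
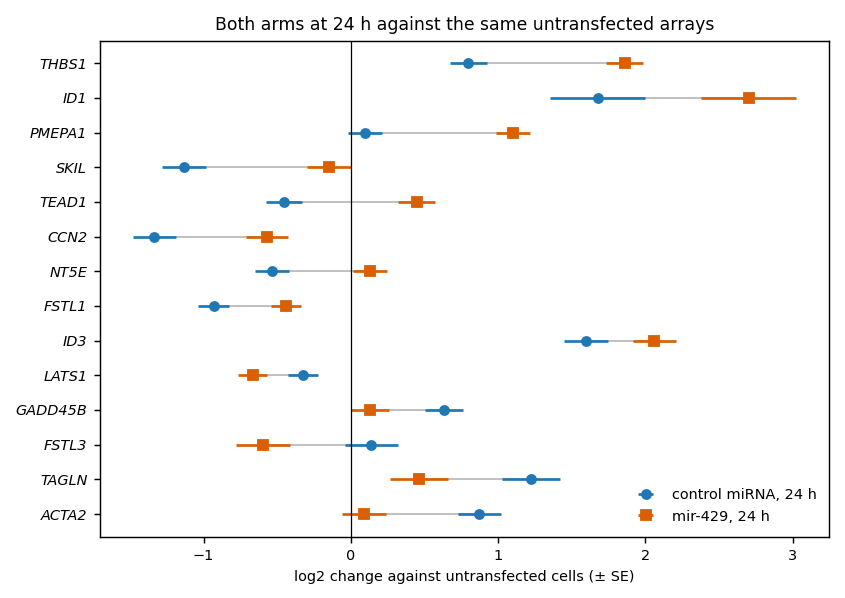
For the 14 members called between arms at 24 h (y axis; ANKRD1 is left out), the log2 change against untransfected cells ± SE (x axis) is plotted for control and mir-429 cells. Control cells lie far under 0 h for SKIL and CCN2 (-1.13 and -1.33), and mir-429 cells lie far above it for PMEPA1 and THBS1 (1.10 and 1.86).

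Against 0 h the 48 h arrays are hard to read gene by gene. In control cells 28 members were called, 19 higher and 9 lower, against 54.5% of all genes (18.4% higher and 36.1% lower), and in mir-429 cells 31 were called, 19 higher and 12 lower, against 56.7% (19.1% higher and 37.6% lower). Without ANKRD1 27 and 30 were called. With the 3′ to 5′ covariate limma gave counts of 0 and 1, against 0.59% and 0.559% of all genes, with 11 of the control values at an unadjusted p under 0.05. Different probe sets of 1 gene were called in opposite directions for 5 of the 28 members with several tested probe sets in control cells and for 9 of 28 in mir-429 cells. Over all 6642 genes with several tested probe sets the shares were 17.9% and 19.2%, beside 1.13% in the comparison of the arms at 48 h. YAP1 is such a case in mir-429 cells: its brightest probe set was at 0.65 against 0 h, and 2 others were at -0.42 and -0.49, the first of them called lower. In control cells the same 3 read 1.05, -0.17 and -0.26. WWTR1 was called higher in both arms on its brightest probe set, at 0.95 and 1.35, and its 2 other probe sets lay between 0.64 and 1.28, with 1 of their 4 values, in control cells, short of the test.

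At 144 h few genes differed between control and untransfected cells. Among members only THBS1 was called, higher by 1.39 ± 0.12 (limma adjusted p = 1.34e-05), against 0.474% of all genes (0.280% higher and 0.194% lower). The member count was 3 with the other groups' arrays left out of the fit and 14 with array weights, against 5.16% and 31.1% of all genes. In mir-429 cells THBS1 was at 0.04 ± 0.12 (adjusted p = 0.847), so that the lower THBS1 of mir-429 cells at 144 h stood beside a rise in the control arm against 0 h. In mir-429 cells 6 members were called, against 18.9% of all genes (6.62% higher and 12.3% lower). CCN2 was higher by 0.63 ± 0.14 (adjusted p = 0.00702), and PMEPA1 and MYOF were both higher by 0.44, while LTBP1 (-0.85 ± 0.18), AJUBA (-0.53) and ACTA2 (-0.50 ± 0.15) were lower. PMEPA1 lost its call without untransfected replicate 2 or 3 or mir-429 replicate 1 (0.37 to 0.41), ACTA2 without replicate 1 or 2 of either group (-0.53 to -0.41), and AJUBA without mir-429 replicate 2 (-0.38). Another AJUBA probe set was called higher (0.77). The difference of CCN2 between arms at 144 h was thus present against 0 h as well, with control at -0.25 ± 0.14 (adjusted p = 0.434).

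The change of the difference between arms over time was tested as an interaction. From 24 to 144 h it changed for 8 of 40 members, 1 upward and 7 downward, against 18.6% of all genes (6.31% upward and 12.3% downward). The 7 were THBS1 (-2.41), ID1 (-1.69), ID3 (-1.26), SKIL (-1.15), PMEPA1 (-0.96), TEAD1 (-0.77) and NT5E (-0.61), and GADD45B went upward (0.57). CCN2 was not among them, with differences of 0.77 and 0.88 at the ends. From 24 to 48 h 3 members changed, all downward, against 4.89% of all genes (1.75% upward and 3.14% downward): ID3 (-0.96), SKIL (-0.84) and NT5E (-0.65). With array weights 18 members changed from 24 to 144 h and 7 from 24 to 48 h, against 37.4% and 8.61% of all genes. With the covariate limma called 5 and 0, against 9.88% and 0.0155% of all genes (4 of the latter members had an unadjusted p under 0.05). From 24 to 144 h the covariate ended the calls of ID1 (-1.66), NT5E (-0.49) and GADD45B (0.40). The upward change of GADD45B was lost without control replicate 3 of 24 h, control replicate 1 or 3 of 144 h, mir-429 replicate 1 of 24 h or mir-429 replicate 2 of 144 h (0.44 to 0.57). From 24 to 48 h the change of ID3 was lost without control replicate 3 of 24 h (-0.93), and those of SKIL and NT5E were each lost without any of 7 arrays, at -0.86 to -0.63 and -0.65 to -0.56. Differences at 24 and 48 h had the same sign for 27 of 40 members (67.5%), beside 61.9% of all genes, and 9 of the members called at both times went the same way, 6 higher and 3 lower, with ID3 alone opposite. ANKRD1 is among the 27, the 9 and the 6, though it passed the filter only through its mir-429 arrays of 48 h, so its part in them is no support. Of all 1262 genes called at both times 96.8% went the same way. These comparisons hold different arrays at each time.

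The other genes of these pathways were given by lists of 19 Hippo pathway genes, 15 further YAP targets (16 symbols, of which SDPR is an older name of CAVIN2) and 20 further TGF-beta response genes. Fits with the covariate, other probe sets or left-out arrays are given for members only, so the calls in these lists carry no such check. With the covariate 4.77% of all genes were called between arms at 24 h. Of the 16 Hippo genes tested, 4 were higher and 1 lower with mir-429 at 24 h, beside 15.0% and 11.6% of all genes. Among the 4 were the scaffold gene SAV1 (1.42), the kinase adaptor MOB1A (0.71) and the kinase STK3 (0.64). SAV1 and MOB1A lay under 0 h in control cells, at -1.18 and -0.94, and were not called against 0 h in mir-429 cells, at 0.23 and -0.23. At 48 h 3 were higher, including NF2 (0.87), and 4 lower, including the TEAD cofactor VGLL3 (-1.10) and FRMD6 (-0.41), beside 9.32% and 11.3% of all genes. At 144 h limma called 0 of 16, against 5.85% of all genes, and 0 had an unadjusted p under 0.05.

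Of the 15 further YAP targets, 4 were higher and 1 lower at 24 h, beside 15.0% and 11.6% of all genes. Among these targets were the ligand gene TGFB2 (1.37), the caveolar protein gene CAVIN2 (1.29) and, lower, CCDC80 (-1.04). TGFB2 was at 1.29 against 0 h in mir-429 cells and at -0.08 in control cells. At 48 h 4 were higher and 3 lower (9.32% and 11.3% of all genes), with CAVIN2 at 1.75, the hyaluronan receptor gene HMMR at 0.45 and CCDC80 at -1.44. At 144 h 0 were higher and 3 lower (1.48% and 4.37% of all genes): IGFBP3 (-1.05), which binds insulin-like growth factors, TGFB2 (-0.83) and the kinase NUAK1 (-0.49).

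Of the 17 further TGF-beta response genes tested, 3 were higher and 5 lower at 24 h, beside 15.0% and 11.6% of all genes. The inhibitory SMAD gene SMAD7 was higher (0.82), and TGFB1I1 (-1.25), which encodes a focal adhesion protein, and the co-repressor gene SKI (-0.60) were lower. At 48 h 1 was higher, the cell cycle inhibitor CDKN1A (0.70), and 6 were lower, including the matrix gene TNC (-1.15) and TGFB1I1 (-0.76), beside 9.32% and 11.3% of all genes. At 144 h BHLHE40 was among 2 higher (0.79), and SMAD7 (-0.82) and the matrix gene TGFBI (-0.66) were lower, beside 1.48% and 4.37% of all genes. SMAD7 and TGFB2 crossed from higher at 24 h to lower at 144 h, and their differences changed by -1.63 and -2.19 between those times. Among the members THBS1 and ID3 crossed in the same way. Of all 257 genes called at both 24 and 144 h, 93 were called in opposite directions. The members and these lists were picked with earlier results on these arrays known, so their counts are descriptions beside the shares over all genes.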

How the data were processed

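RNA was measured on 21 arrays of a 54675-probe-set human expression platform. The deposited table holds RMA values, as the submitters' processing notes name them, on the log2 scale and 1 per probe set. Its software version is not given in the sources used. Values ran from 0.746 to 14.969, with array medians of 3.949 to 4.293, and were used without further scaling. Symbols came from the platform annotation, updated through RefSeq identifiers (99.9% of 41097 probe sets with 1 symbol matched). Probe sets with several symbols (1801) or none (11777) were not named. A gene was read from its brightest probe set and tested where that lay above the array median on at least 3 arrays.

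Tests used limma 3.58.1 in R 4.3.3 fitting 7 group means (14 residual degrees of freedom, prior 3.93), two-sided, with Benjamini-Hochberg adjustment over all genes tested. There were 11 comparisons: mir-429 against control at 3 times, each arm against untransfected cells at 3 times, and the change of the mir-429 effect from 24 to 48 h and to 144 h. Where a group mean lay under its array medians, values were raised to the median to give a bound. The script was tested on simulated data. Precision is limited by the number of arrays. The spread was unequal. Pairs of control arrays at 48 h differed with an SD of 0.392 to 0.473, against 0.172 to 0.254 for untransfected pairs. For control pairs at 24 h the SD was 0.245 to 0.449. Pooled errors may therefore be too small at 48 h and in comparisons with the control arrays of 24 h.

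Values of every array were given for YAP1, WWTR1, CCN1, CCN2 and members called with a log2 change of at least 1 in a comparison of the arms or in its change from 24 to 144 h, and also, chosen after their values were seen, for TEAD1, NT5E, TAGLN and ACTA2. Of the other lists up to 3 members with the smallest p were named per comparison. The members and lists were chosen with earlier results of these data known. Alternatives were cyclic loess or quantile normalization, no filter, the mean over probe sets, array weights, the 3′ to 5′ covariate, a replicate block, fewer arrays in the fit, and leaving out each array.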

Additional observations from a re-analysis of the deposited data

Results flagged for a closer look

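The difference between mir-429 and control arms was itself different between times for these members, by the interaction test in limma. From 24 to 144 h the difference of THBS1 went from 1.06 to -1.35, a change of -2.41 (limma adjusted p = 2.05e-07). That of ID1 changed by -1.69 (adjusted p = 0.0155), with arms apart at 24 h and at 144 h in opposite order. ID3 changed by -1.26 (adjusted p = 0.000653), SKIL by -1.15 (adjusted p = 0.00146), PMEPA1 by -0.96 (adjusted p = 0.000788), TEAD1 by -0.77 (adjusted p = 0.00629) and NT5E by -0.61 (adjusted p = 0.0141). The NT5E value is that of its brightest probe set, and another NT5E probe set was called higher between arms at 144 h. The difference of GADD45B changed by 0.57 (adjusted p = 0.0333).

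From 24 to 48 h the difference of ID3 changed by -0.96 (limma adjusted p = 0.0174), that of SKIL by -0.84 (adjusted p = 0.0323) and that of NT5E by -0.65 (adjusted p = 0.0312). For NT5E the brightest probe set and the mean over its probe sets gave opposite signs, at -0.65 and 0.22. Groups of 3 arrays are too small for the search for single distant arrays.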

How the results depend on the processing

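With array weights the number of members called was 27 and 11 between arms at 24 and 144 h, 14 and 16 at 144 h against untransfected cells (control, then mir-429), and 7 and 18 for the change of the difference from 24 to 48 and to 144 h. The shares of all genes called with array weights were, in that order, 48.2% and 18.9%, 31.1% and 40.3%, and 8.61% and 37.4%. With the 3′ to 5′ covariate the number of members called was 5 between arms at 24 h and 15 in control cells at 24 h against 0 h. It was 0 and 1 at 48 h against 0 h (control, then mir-429, with 11 of the control values at an unadjusted p under 0.05 in limma). It was 0 and 5 for the changes to 48 and 144 h (4 for the former at an unadjusted p under 0.05 in limma). The shares of all genes called with the covariate were, in that order, 4.77%, 16.4%, 0.59% and 0.559%, and 0.0155% and 9.88%. The covariate nearly coincides with 48 h against 0 h, so it leaves little to fit there. With the other groups' arrays left out of the fit the counts were 4 between arms at 48 h, 3 and 10 at 144 h against 0 h, and 1 for the change to 48 h. The shares of all genes there were 7.11%, 5.16% and 26.1%, and 0.45%. The change to 48 h had 1 member called without the filter (1.33% of all genes) and 1 with means over probe sets (2.68%). The change to 144 h had 5 with means over probe sets (13.6%).

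Leaving out 1 array gave 11 to 20, 11 to 15 and 3 to 4 members between arms at 24, 48 and 144 h. It gave 17 to 25, 26 to 27 and 1 to 1 in control cells and 13 to 14, 27 to 30 and 4 to 6 in mir-429 cells against 0 h, and 0 to 7 and 7 to 11 for the changes to 48 and 144 h, with 0 without control replicate 3 of 24 h. The shares of all genes between arms ran from 16.7% to 31.3%, 16.3% to 20.3% and 2.53% to 5.12%. In control cells they ran from 27% to 40.8%, 47.2% to 53.4% and 0.194% to 0.481%. In mir-429 cells they ran from 16.3% to 20.5%, 49.6% to 52.5% and 9.88% to 14.1%. For the changes they ran from 1.28% to 15.3% and 11.6% to 24.3%.

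Of 150 called values, signs turned in 15 with the mean over probe sets. These were AMOTL1 between arms at 48 h (0.12), ASAP1 (0.25), LATS1 (0.19) and TGM2 (-0.47) in control cells at 24 h, AJUBA (0.48), MYOF (-0.35) and NT5E (-0.095) in control cells at 48 h, AJUBA (0.38), AMOTL1 (0.11), CCN1 (-0.15), CDC42EP3 (0.45), MYOF (-0.10) and YAP1 (-0.086) in mir-429 cells at 48 h, AJUBA in mir-429 cells at 144 h (0.018), and the change of NT5E to 48 h (0.22). With the covariate 5 turned at 48 h against 0 h, GADD45B (-0.23) and INHBA (-0.061) in control and ASAP1 (-0.075), CCN1 (-0.095) and CDC42EP3 (0.58) in mir-429 cells. The causes were not tested. In the other settings 0 turned, and 142 with array weights, 144 with cyclic loess, 145 with quantile normalization, 136 without the filter and 129 with the other groups left out kept their side of the threshold. With the mean over probe sets 99 did, and with the covariate 62. Under cyclic loess the median of all genes at 48 h against 0 h went from -0.16 to -0.06 in control and from -0.18 to -0.07 in mir-429 cells. The share of calls that were higher among all genes between arms at 144 h went from 25.3% to 43.8% under cyclic loess and 37.0% under quantile normalization.

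With the replicate number as a block 15, 13 and 4 members were called between arms at 24, 48 and 144 h, against 26.1%, 20% and 5.57% of all genes. In that setting 148 of the 150 called values kept their call. Taken over all groups, same-numbered arrays did not deviate together (63 pairs, r from -0.41 to 0.31, median -0.02), though r was over 0.1 in 17 pairs. Between the arms at 24 h, r of the same-numbered arrays was 0.28, 0.09 and 0.18. The numbers were not taken as pairing the arrays.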
